A study of Mus musculus with 24 samples.

Results

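EGR, NR4A and IER immediate early genes are the subject here: the 9 genes Egr1, Egr2, Egr3, Nr4a1, Nr4a2, Nr4a3, Ier2, Ier3 and Ier5, found by their symbols among 24537 genes in the deposited expression tables. The study measured transcript levels in macrophages grown from mouse bone marrow and given vehicle (the control group), lipopolysaccharide (LPS, which macrophages sense through the receptor Tlr4), the catechol estrogen 4-hydroxyestrone (4-OHE1), or LPS and 4-OHE1 at once. RNA was taken after 6 h or after 24 h, which gives 8 groups of 3 libraries and 24 libraries in all. The macrophages of every group came from the marrow of female C57BL/6J mice aged 8 weeks, were differentiated with M-CSF at 20 ng/mL and were plated for treatment on day 7. The labels name no genetic change, and the stated dose of LPS (100 ng/mL) and of 4-OHE1 (5 mM) is given both for the stock and for the medium after a 1 to 1000 dilution, so the dose in the medium is uncertain. No label says whether the 3 libraries of a group came from different mice or wells, so p-values measure only the spread between these libraries, which may be technical.

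Immediate early genes are transcribed within minutes of a stimulus from factors that are already in the cell, such as serum response factor, CREB and NF-kB, and most of their transcripts are short-lived. EGR proteins are zinc finger transcription factors that bind GC-rich sites, and their activity is held back by the corepressors Nab1 and Nab2. NR4A proteins are orphan nuclear receptors whose activity is set mainly by how much of them is made, and in macrophages they are known as inducible regulators of inflammatory genes. IER proteins are a looser group, named for their early response: Ier2 is a nuclear protein, Ier3 acts on cell survival and is a known NF-kB target, and Ier5 is a stress-inducible protein that acts on heat shock factor HSF1. The series has no time before 6 h, so any first wave within minutes of treatment was not measured here.

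Library depth was 8127155 to 13339193 reads. All 12 macrophage markers checked, such as Adgre1 and Csf1r, reached 1 FPKM in all 24 libraries. On the first principal component of the 6 h libraries (63% of the variance) LPS+4-OHE1 replicate 3 scored 4.27 and replicates 1 and 2 scored 19.4 and 18.3. Differences of members that use that group at 6 h and were called before scaling are therefore also given without replicate 3. FPKM divides the reads of a gene by its transcript length and the library's depth, so levels of different genes can be compared per length. The values were not scaled between libraries. The median gene differed by -0.61 on the log2 scale for LPS against control at 6 h and by 0.01 after median-of-ratios scaling, and by -0.31 and 0.01 at 24 h, so differences are also given with that scaling where it changes a call.

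Of the 9 members, 6 have a start in the RefSeq promoter table (GRCm38.p6). The stretches before the start are shown for Nr4a1, Nr4a2, Nr4a3, Egr2 and Ier3, chosen for the motifs they hold, and that of Ier5 is not shown. Windows of 250 bases were used, shortened where a transcript annotated by GENCODE begins. That of Egr2 was instead cut to 30 bases placed around the motifs marked in it. In the NR4A genes, capitals mark TGACG, the core of the CREB binding site, searched on both strands. It is also part of the full site TGACGTCA, which was not found in the stretches shown.
Nr4a1 (chr15:101266596-101266845, plus strand): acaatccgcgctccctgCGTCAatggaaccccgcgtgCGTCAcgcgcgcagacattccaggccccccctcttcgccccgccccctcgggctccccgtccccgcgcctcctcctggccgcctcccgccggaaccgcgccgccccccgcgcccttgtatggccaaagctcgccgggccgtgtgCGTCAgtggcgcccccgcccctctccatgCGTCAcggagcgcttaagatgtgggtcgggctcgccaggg
Nr4a2 (chr2:57124004-57124253, minus strand): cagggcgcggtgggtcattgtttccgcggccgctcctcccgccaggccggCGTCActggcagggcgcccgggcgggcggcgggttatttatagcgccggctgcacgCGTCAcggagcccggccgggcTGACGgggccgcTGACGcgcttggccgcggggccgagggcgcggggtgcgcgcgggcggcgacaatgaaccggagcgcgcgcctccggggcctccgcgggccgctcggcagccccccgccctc
Nr4a3 (chr4:48045055-48045152, plus strand): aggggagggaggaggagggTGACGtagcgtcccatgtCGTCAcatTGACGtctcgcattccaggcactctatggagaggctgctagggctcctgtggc
This core occurred 4 times before Nr4a1, 4 times before Nr4a2 and 3 times in the 98 bases before Nr4a3. It was present in 17.8% of 32851 windows of 250 bases and in 5.22% of the same 98-base stretches. In Egr2 the capitals mark a CArG box, the binding site of serum response factor, and a CREB core. In Ier3 they mark an NF-kB site.
Egr2 (chr10:67537793-67537822, plus strand): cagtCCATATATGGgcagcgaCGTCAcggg
Ier3 (chr17:35821463-35821683, plus strand): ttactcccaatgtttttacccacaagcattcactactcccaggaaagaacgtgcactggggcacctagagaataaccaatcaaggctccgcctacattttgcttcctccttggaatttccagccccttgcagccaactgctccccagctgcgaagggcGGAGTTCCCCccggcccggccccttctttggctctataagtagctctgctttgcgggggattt
Of all 250-base windows, 1.47% held a CArG box and 17.8% a CREB core. In the same 30-base stretches the shares were 0.11% and 1.81%. The Egr2 stretch was placed around its own motifs, so their presence in it was fixed in advance and these smaller shares do not measure rarity. An NF-kB site was present in 3.47% of the same 221-base stretches. The window of Nr4a3 lies before the start of the long transcript, while the expression tables count a shorter transcript that starts further downstream. Other motifs searched on both strands also matched and are not capitalised. An EGR site (GCGNGGGCG, in 4.7% of all 250-base windows) matched once in Nr4a1 and once in Nr4a2. An antioxidant response core (TGACNNNGC, 10.2%), which can overlap the CREB core, matched once each in Nr4a2, Nr4a3 and Egr2, and TATAAA (12.4%) once in Nr4a2. The 10.2% is of 250-base windows, and no share was computed for the shorter stretches of Nr4a3 (98 bases) and Egr2 (30 bases). All these motifs are matches of letters only and say nothing on binding in these cells.

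After 6 h of 4-OHE1 all 8 members that could be tested were higher than in control. Of all genes tested 20.9% were higher and 44.0% lower. Egr1, Nr4a2 and Nr4a3 passed the filter of 1 FPKM in 3 libraries through the groups in which they are high. LPS gave a mixed picture: Ier3, Nr4a3, Egr2 and Ier2 were higher, Nr4a1 was lower, and Egr1, Nr4a2 and Ier5, which rose with 4-OHE1, did not pass the test, though Ier5 was called higher after scaling and in the authors' deposited table. With both agents at 6 h Egr1, Nr4a1, Nr4a2 and Ier5 were higher than with LPS alone, while Ier3, Nr4a3, Egr2, Ier2 and Egr1 stayed below the sum of the separate log2 changes. By 24 h the effect of 4-OHE1 was smaller for 5 members, where 16.6% of all genes were lower and 37.0% higher on this measure. Of these 5 members, Nr4a2 and Nr4a3 entered that fit through the 6 h groups in which they are high. Ier3 was still high with LPS at 24 h, and Egr2 was then higher with both agents than with either alone. In bulk RNA fewer cells that make a transcript and less transcript per cell cannot be told apart.

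**Figure D1:**
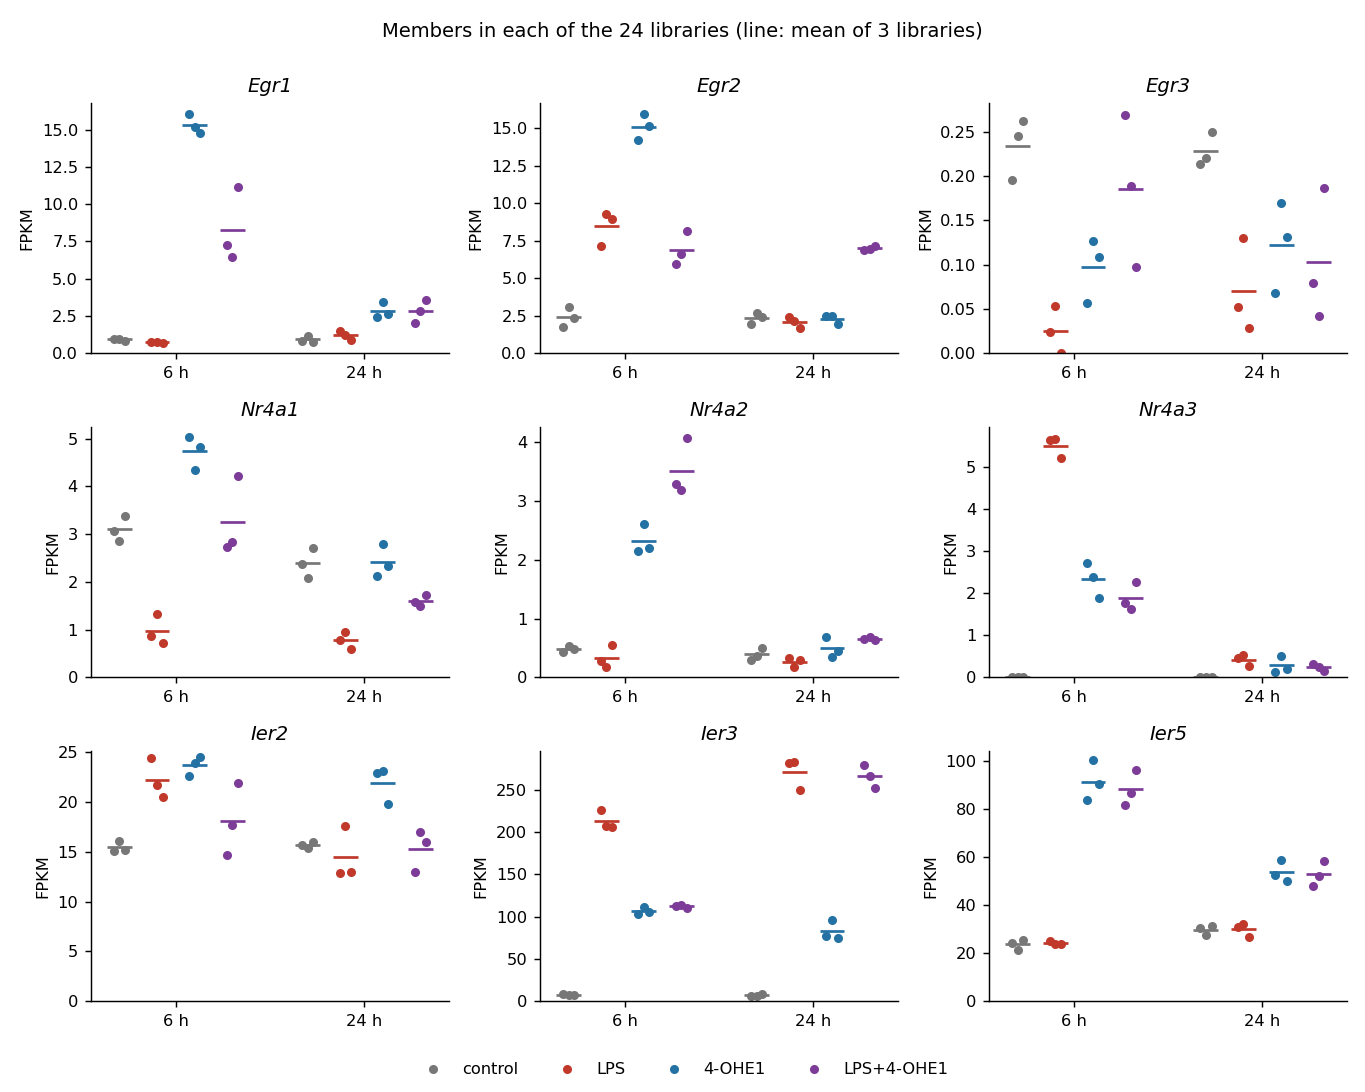
FPKM of the 9 members (vertical axes, linear and starting at 0) in each of the 24 libraries, by time and treatment, with points for libraries and lines for the mean of 3. Egr1 was highest with 4-OHE1 at 6 h. Ier5 had its highest mean with 4-OHE1 at 6 h and Ier3 with LPS at 24 h. Each of these 2 overlapped the group with both agents at the same time. Egr2 at 24 h had a mean of 7.00 FPKM with both agents and of 2.10 to 2.33 FPKM in the other groups.

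Egr1, the prototype of its family (mm10 chromosome 18, 34861207 to 34864956), read 0.984, 0.990 and 0.844 FPKM in the control libraries at 6 h and 16.02, 15.2 and 14.7 FPKM with 4-OHE1. With LPS it read 0.780, 0.771 and 0.663 FPKM, and with both agents 7.25, 6.43 and 11.1 FPKM. The 4-OHE1 libraries lay above all others, the libraries with both agents came next, and LPS lay below control without overlap. The mean was 15.3 ± 0.643 FPKM with 4-OHE1 and 0.939 ± 0.0826 FPKM in control (SD, n = 3), a ratio of 16.3, and the log2(FPKM + 0.5) difference was 3.46 ± 0.16 (± SE, as throughout; limma adjusted p = 2.55e-09). For LPS the difference was -0.22 ± 0.16 (adjusted p = 0.209) and 0.21 after scaling, so its sign rests on the scaling, and without LPS+4-OHE1 replicate 3 it was called lower (adjusted p = 0.0384). At 24 h Egr1 read 0.855, 1.17 and 0.772 FPKM in control, 1.47, 1.23 and 0.888 with LPS, 2.45, 3.41 and 2.62 with 4-OHE1, and 2.03, 2.86 and 3.57 with both. The libraries with 4-OHE1, alone or with LPS, were then the highest and overlapped each other, and control overlapped LPS.

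Egr2, which is induced by interleukin 4 in macrophages and needed for myelination in Schwann cells (chromosome 10, 67537930 to 67542188), read 1.77, 3.11 and 2.38 FPKM in control at 6 h, 7.15, 9.31 and 8.94 with LPS, 14.2, 15.96 and 15.1 with 4-OHE1, and 5.94, 6.59 and 8.12 with both. Each agent alone was above control in every library, and both agents together overlapped LPS and lay below 4-OHE1. The rise was 1.64 ± 0.16 with LPS (adjusted p = 9.03e-07) and 2.44 ± 0.16 with 4-OHE1 (adjusted p = 6.96e-08). At 24 h control read 1.93, 2.66 and 2.40 FPKM, LPS 2.44, 2.17 and 1.70, and 4-OHE1 2.45, 2.52 and 1.92, while both agents together gave 6.88, 6.95 and 7.17 FPKM. That last group, at a mean of 7.00 ± 0.154 FPKM (SD, n = 3), stood apart from the other 3, whose ranges overlapped. With both agents the level at 24 h was 1.54 ± 0.13 above LPS (adjusted p = 9.86e-07) and 1.43 ± 0.13 above 4-OHE1 (adjusted p = 2.18e-06).

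Egr3, the third zinc finger member (chromosome 14, 70077445 to 70082613), was near the detection limit in all 24 libraries and was not tested. Its level lay between 0 FPKM in 1 LPS library at 6 h and 0.269 FPKM in 1 library with both agents, at 0 to 11 reads per library. In control it read 0.195, 0.245 and 0.262 FPKM at 6 h, and with LPS 0.024, 0.053 and 0 FPKM. The control group held 29 reads and the LPS group 3, and the control libraries lay above the LPS libraries at both times. The levels here count a transcript of 3868 bases. The authors' deposited table, which counts a transcript of 3920 bases, gives Egr3 a log2 fold change of -2.45 for LPS at 6 h, with an adjusted p of 0.0493.

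Nr4a1 (chromosome 15, 101266846 to 101274794), best known for restraining macrophage activation and for the survival of patrolling monocytes, read 3.06, 2.85 and 3.38 FPKM in control at 6 h and 0.858, 1.34 and 0.728 with LPS. With 4-OHE1 it read 5.02, 4.34 and 4.83 FPKM, and with both agents 2.72, 2.84 and 4.22. LPS lay below control and 4-OHE1 above it, with no overlap. Nr4a1 fell by 1.31 ± 0.17 on the log2 scale with LPS (adjusted p = 1.24e-05; -0.78 after scaling, still called) and rose by 0.54 ± 0.17 with 4-OHE1 (adjusted p = 0.0140). Adding 4-OHE1 to LPS gave a level 1.35 ± 0.17 higher than LPS alone (adjusted p = 1.54e-05). At 24 h it read 2.37, 2.07 and 2.71 FPKM in control, 0.774, 0.955 and 0.598 with LPS, 2.12, 2.78 and 2.34 with 4-OHE1, and 1.57, 1.502 and 1.72 with both. LPS was again the lowest, 4-OHE1 overlapped control, and both agents lay between. The difference between LPS and control was -1.18 ± 0.14 (adjusted p = 6.05e-06).

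Nr4a2, the receptor known for dopamine neurons (chromosome 2, 57107226 to 57124003), read 0.425, 0.535 and 0.485 FPKM in control at 6 h, 0.275, 0.171 and 0.556 with LPS, 2.15, 2.61 and 2.20 with 4-OHE1, and 3.30, 3.19 and 4.07 with both. It was the only NR4A gene whose highest libraries were those with both agents, and control and LPS overlapped. LPS gave -0.26 ± 0.17 (adjusted p = 0.163), called lower without LPS replicate 3 (-0.44, adjusted p = 0.0187). The rise with 4-OHE1 was 1.52 ± 0.17 (adjusted p = 6.18e-06), and adding 4-OHE1 to LPS raised it by 2.29 ± 0.17 (adjusted p = 9.36e-08). Adding LPS to 4-OHE1 raised it by 0.51 ± 0.17 (adjusted p = 0.0201), a call that was lost without 4-OHE1 replicate 1 (adjusted p = 0.0641) or replicate 3 (0.0566), without LPS+4-OHE1 replicate 3 (0.41, adjusted p = 0.0687) and with a pseudocount of 0.1 (0.0883). At 24 h it lay between 0.167 and 0.694 FPKM in all 12 libraries and was not tested.

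Nr4a3 (chromosome 4, 48051246 to 48056739), the third NR4A receptor, had no read in any of the 6 control libraries of the 2 times. With LPS at 6 h it read 5.64, 5.67 and 5.20 FPKM, with 4-OHE1 2.73, 2.39 and 1.88, and with both 1.76, 1.62 and 2.26. LPS gave the highest libraries, and 4-OHE1 and both agents overlapped. Relative to a floor of 3 reads over the control group, the mean level was 77.2 times as high with LPS. It was 32.7 times as high with 4-OHE1 and 26.4 times as high with both. Adding 4-OHE1 to LPS lowered it, by -1.34 ± 0.14 (adjusted p = 2.13e-06). At 24 h it was not tested, at 0.264 to 0.522 FPKM with LPS, 0.136 to 0.507 with 4-OHE1 and 0.140 to 0.317 with both. These groups held 17, 13 and 10 reads, and their levels were at least 6.17-, 4.13- and 3.48-fold higher than the control floor. The counted transcript has 1288 bases, and the authors' deposited table, which counts a transcript of 5559 bases, gives log2 fold changes of 8.41 for LPS and 6.59 for 4-OHE1 at 6 h and of 6.41 and 4.95 at 24 h.

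Ier2 (chromosome 8, 84661331 to 84662852) was at a moderate level throughout, between 12.9 and 24.6 FPKM in the 24 libraries. At 6 h it read 15.1, 16.1 and 15.2 FPKM in control, 24.4, 21.7 and 20.6 with LPS, 22.7, 24.0 and 24.6 with 4-OHE1, and 14.7, 17.7 and 22.0 with both. Each agent alone lay above control, and both agents overlapped control. The rise was 0.51 ± 0.12 with LPS (adjusted p = 0.00127; 1.18 after scaling) and 0.60 ± 0.12 with 4-OHE1 (adjusted p = 5.84e-04; 0.77 after scaling). With both agents it was 0.30 ± 0.12 below LPS on the log2 scale (-0.30, adjusted p = 0.0339), a call lost without LPS replicate 1 (adjusted p = 0.126) or replicate 2 (0.0597), without LPS+4-OHE1 replicate 1 (0.139) or replicate 2 (0.0757), and with no filter on low values (0.0563). At 24 h the rise with 4-OHE1 was 0.47 ± 0.12 (adjusted p = 0.00639), and LPS gave -0.12 ± 0.12 (adjusted p = 0.372; 0.22 after scaling, adjusted p = 0.109).

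Ier3 (chromosome 17, 35821713 to 35822911) had the largest rise with LPS among the members with a level in control. It read 8.06, 6.82 and 7.36 FPKM in control at 6 h, 226, 207 and 206 with LPS, 104, 111 and 105 with 4-OHE1, and 112, 114 and 110 with both. LPS was above all other groups, and both agents together overlapped 4-OHE1 alone. The rise was 4.75 ± 0.06 with LPS (adjusted p = 2.86e-14) and 3.76 ± 0.06 with 4-OHE1 (adjusted p = 1.24e-12), and adding 4-OHE1 to LPS lowered it, by -0.92 ± 0.06 (adjusted p = 4.97e-08). At 24 h it read 6.01, 5.65 and 8.72 FPKM in control, 281, 282 and 248.9 with LPS, 77.4, 95.5 and 74.4 with 4-OHE1, and 279, 266 and 252 with both. The libraries with both agents then overlapped LPS, with a difference of -0.03 ± 0.14 (adjusted p = 0.884), and not 4-OHE1, which they exceeded by 1.69 ± 0.14 (adjusted p = 5.86e-07).

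Ier5 (chromosome 1, 155096367 to 155099636) was high in the groups with 4-OHE1. It read 24.0, 21.4 and 25.5 FPKM in control at 6 h, 24.9, 23.9 and 23.9 with LPS, 83.5, 100 and 90.3 with 4-OHE1, and 81.5, 86.7 and 96.2 with both. Control overlapped LPS, and 4-OHE1 overlapped both agents. The rise with 4-OHE1 was 1.93 ± 0.08 (adjusted p = 2.02e-09), and LPS gave 0.04 ± 0.08 (adjusted p = 0.676), but 0.71 after scaling, which was called (adjusted p = 1.49e-06). The authors' deposited table gives a log2 fold change of 0.72 for this comparison. At 24 h it read 30.5, 27.6 and 31.1 FPKM in control, 30.97, 32.0 and 26.8 with LPS, 52.3, 58.6 and 49.9 with 4-OHE1, and 48.0, 52.0 and 58.5 with both. The rise with 4-OHE1 was then 0.84 ± 0.09 (adjusted p = 9.38e-06).

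Counted over the group, LPS at 6 h raised 4 and lowered 1 of the 8 members tested, where 16.1% of all 11098 genes tested were higher and 68.1% lower. Scaling raised the number higher to 5, by adding Ier5, and so did the authors' deposited table. 4-OHE1 at 6 h raised 8 and lowered none, where 20.9% of all genes were higher and 44.0% lower, with the same 8 calls after scaling. Egr1, Nr4a2 and Nr4a3 passed the filter of 1 FPKM in 3 libraries through the groups in which they are high, so these counts describe the members and are not a test of them. Without the filter Egr3 was also called lower, at both LPS and 4-OHE1, at 6 h. Both comparisons use the same control libraries.

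The next question was how the 2 agents combine. With both agents at 6 h, 4 members were higher and 3 lower than with LPS alone, where 42.7% of all genes were higher and 25.3% lower. Egr1 was 2.79 ± 0.16 higher (adjusted p = 7.34e-09; 2.57 without replicate 3) and Ier5 1.84 ± 0.08 higher (adjusted p = 1.19e-09; 1.77 without it), while Egr2 at -0.28 ± 0.16 did not pass the test (adjusted p = 0.138; -0.40, adjusted p = 0.0581 without it) but did after scaling (-0.50, adjusted p = 0.0127). The other differences from LPS, given with each gene above, became 1.18 for Nr4a1, 2.19 for Nr4a2, -1.45 for Nr4a3, -0.45 for Ier2 and -0.91 for Ier3 without replicate 3, all still called. Against 4-OHE1 alone, 1 was higher and 4 were lower, where 10.1% and 50.2% of all genes were. These counts are near the shares of all genes. Egr1 stood at -0.89 ± 0.16 (adjusted p = 4.99e-04; -1.11 without replicate 3) and Egr2 at -1.09 ± 0.16 (adjusted p = 1.47e-04; -1.21 without it). Nr4a1 (-0.50, adjusted p = 0.0240; -0.67 without replicate 3) and Ier2 (-0.40, adjusted p = 0.0105; -0.54 without it) were also lower, calls that scaling ended, and that of Nr4a1 was further lost without 4-OHE1 replicate 1 or 3 or LPS+4-OHE1 replicate 1 or 2. Scaling made Ier3 (0.36) and Ier5 (0.23) higher than with 4-OHE1 alone, and the sign of Ier5 was turned, from -0.05. Nr4a3 at -0.25 was not called (adjusted p = 0.132) but was lower without 4-OHE1 replicate 3 (adjusted p = 0.0417) or LPS+4-OHE1 replicate 3 (adjusted p = 0.0379).

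**Figure D2:**
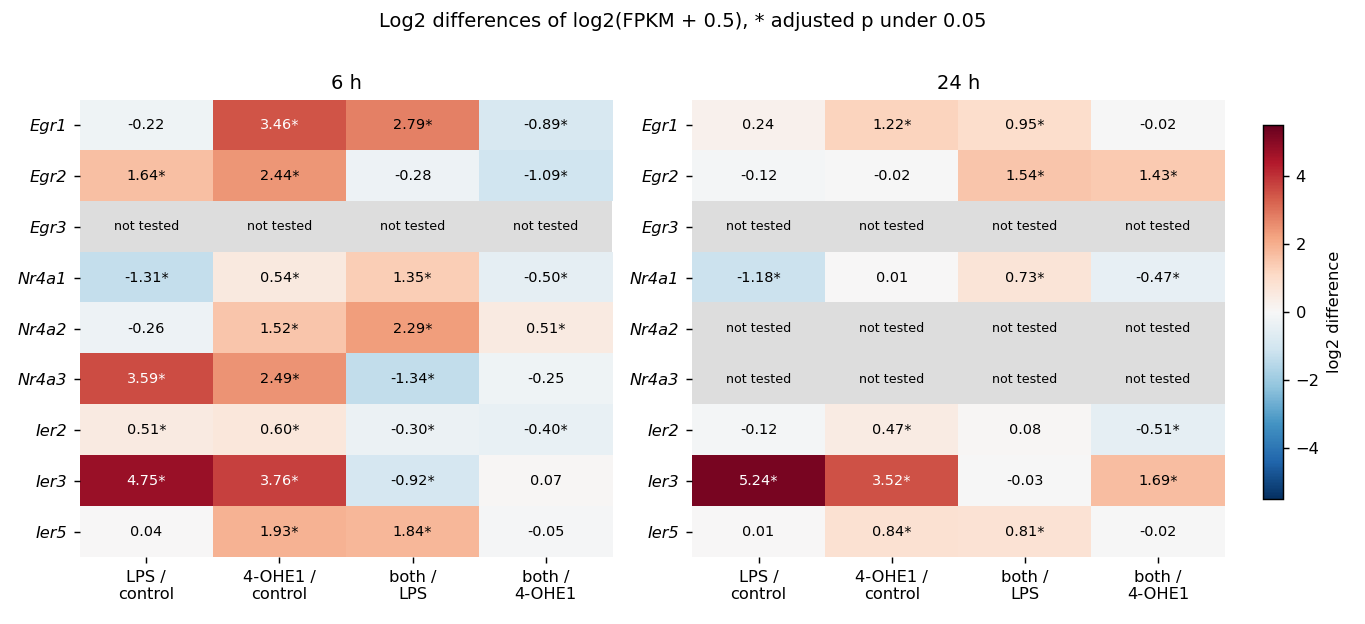
Log2 differences of log2(FPKM + 0.5) for the members (rows) in 4 comparisons (columns) at 6 h and 24 h, red higher and blue lower, with an asterisk at an adjusted p under 0.05 and grey where a gene was not tested. The column of 4-OHE1 against control at 6 h holds 8 positive called values, while that of LPS holds 4 positive and 1 negative. Of all genes 20.9% were called higher and 44.0% lower with 4-OHE1 at 6 h, and 16.1% and 68.1% with LPS.

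An interaction term states how far the change with both agents departs, on the log2 scale, from the sum of the separate changes. At 6 h it was called for 7 of the 8 members tested, 5 below and 2 above 0, where 15.2% of all genes were below and 45.5% above. The lowest were Ier3 at -4.68 ± 0.09 (adjusted p = 8.47e-12), Nr4a3 at -3.83 ± 0.19 (adjusted p = 1.20e-08) and Egr2 at -2.72 ± 0.23 (adjusted p = 7.89e-07), which each agent alone had raised, as it had Ier2. The value of Nr4a3 depends on the pseudocount, since its controls are at 0. Ier2 stood at -0.91 ± 0.16 (adjusted p = 4.43e-04) and Egr1 at -0.67 ± 0.22 (adjusted p = 0.0198), the latter not called by voom on the recovered reads (adjusted p = 0.231). Nr4a2 was above 0, at 0.77 ± 0.24 (adjusted p = 0.0139), and so was Nr4a1, at 0.81 ± 0.24 (adjusted p = 0.0115), a call lost with scaling (0.54, adjusted p = 0.0698). Ier5 was not called (-0.09 ± 0.12, adjusted p = 0.538) but was after scaling (-0.48, adjusted p = 0.00167). Without LPS+4-OHE1 replicate 3 the same 7 members were called, with the interaction at -4.67 for Ier3, -3.94 for Nr4a3, -2.84 for Egr2, -1.05 for Ier2, -0.89 for Egr1, 0.67 for Nr4a2 and 0.63 for Nr4a1.

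**Figure D3:**
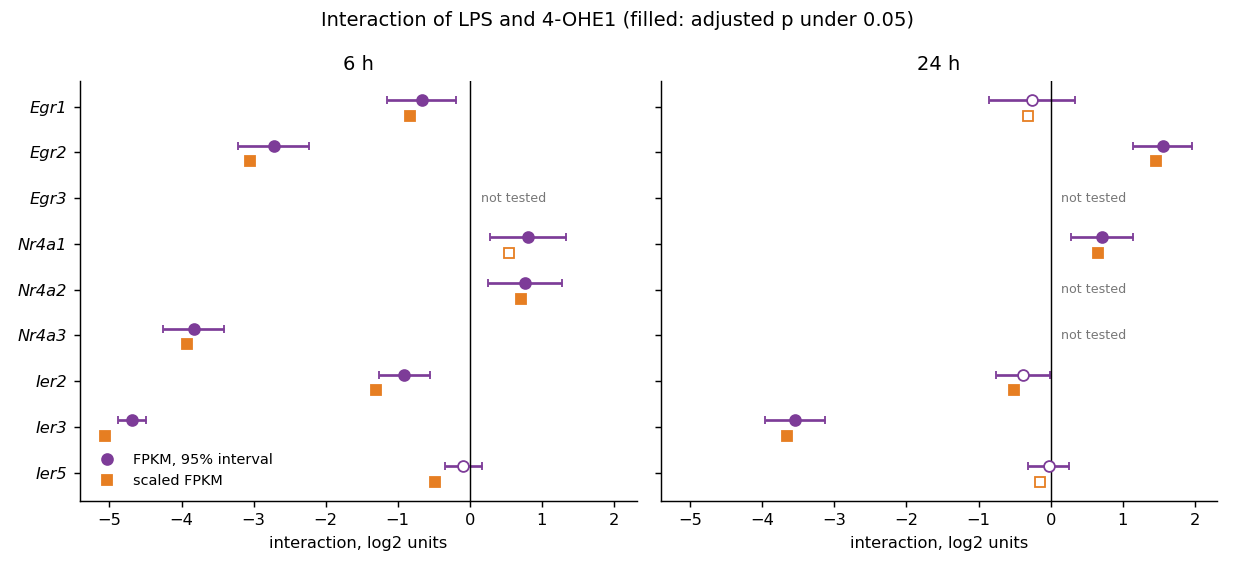
Interaction of LPS and 4-OHE1 for each member (horizontal axis, log2 units) at 6 h and 24 h, with circles and bars for FPKM values and their 95% intervals and squares for scaled values, filled where the adjusted p is under 0.05. Egr2 lies at -2.72 at 6 h and at 1.55 at 24 h, and Ier3 lies far below 0 at both times.

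At 24 h, 6 of the 9 members were tested. LPS raised Ier3 by 5.24 ± 0.14 (adjusted p = 4.96e-12) and lowered Nr4a1, where 19.9% of all 11185 genes tested were higher and 53.5% lower, and after scaling Egr1 (0.49, adjusted p = 0.0427) and Ier5 (0.35, adjusted p = 0.00285) were also higher. 4-OHE1 raised Egr1 by 1.22 ± 0.20 (adjusted p = 2.26e-04), Ier2, Ier3 by 3.52 ± 0.14 (adjusted p = 2.08e-09) and Ier5, 4 in all and none lower, where 29.9% were higher and 23.1% lower. Egr2 (-0.02 ± 0.13, adjusted p = 0.933) and Nr4a1 (0.01 ± 0.14, adjusted p = 0.942) were no longer different from control by this test. With both agents against LPS, Egr1, Egr2, Nr4a1 and Ier5 were higher and none lower, where 39.5% were higher and 14.9% lower. Egr1 stood at 0.96 ± 0.20 (adjusted p = 0.00127), Nr4a1 at 0.73 ± 0.14 (adjusted p = 7.36e-04) and Ier5 at 0.81 ± 0.09 (adjusted p = 9.98e-06). Against 4-OHE1, Egr2 and Ier3 were higher and Nr4a1 (-0.47, adjusted p = 0.0121) and Ier2 (-0.51, adjusted p = 0.00355) lower, where 12% were higher and 44.3% lower. Both lower calls ended with scaling, and that of Nr4a1 also ended without 4-OHE1 replicate 2 (adjusted p = 0.0505). The interaction was above 0 for Egr2, at 1.55 ± 0.19 (adjusted p = 2.71e-05), and Nr4a1, at 0.71 ± 0.19 (adjusted p = 0.0103), and below 0 for Ier3, at -3.55 ± 0.19 (adjusted p = 3.94e-08), where 27.6% of all genes were above and 15.7% below. Ier2 stood at -0.39 (adjusted p = 0.0907) and passed after scaling (-0.50, adjusted p = 0.0248).

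Between 6 h and 24 h the control libraries changed little: 2.37% of all 11220 genes tested were higher and 2.37% lower, and of the members 1 was called, Ier5 at 0.33 ± 0.09 (adjusted p = 0.0402). That call was lost with a replicate block (adjusted p = 0.0530), with no filter on low values (0.0631), and without control replicate 1 or 2 of 6 h, any of the 3 control replicates of 24 h, LPS replicate 2 or 3 of 6 h, 4-OHE1 replicate 3 of 6 h, 4-OHE1 replicate 1 of 24 h or LPS+4-OHE1 replicate 2 of 24 h. Nr4a2 and Nr4a3 did not reach the filter at 24 h and entered this fit through the 6 h groups in which they are high, so a fall by 24 h was built into their inclusion, and the counts between the times are a description. With 4-OHE1, 7 members were lower at 24 h and none higher, where 44.2% of all genes were higher and 21.2% lower. Egr2 fell by 2.48 ± 0.15 (adjusted p = 2.10e-11), Egr1 by 2.26 ± 0.18 (adjusted p = 1.29e-09), Nr4a3 by 1.88, Nr4a2 by 1.51, Nr4a1 by 0.85, Ier5 by 0.76 and Ier3 by 0.38 on the log2 scale. With LPS 3 were higher and 3 lower, where 47.6% were higher and 20.8% lower: Nr4a3 fell by 2.72, Egr2 by 1.79 and Ier2 by 0.61, while the rises of Egr1 (0.44), Ier3 (0.34) and Ier5 (0.30) were not called after scaling, when Ier5 stood at -0.01. The rise of Egr1 was also not called with any LPS library of 6 h, or LPS replicate 1 or 2 of 24 h, left out. With both agents 5 were lower and 1 higher, where 23.8% were lower and 47.9% higher. Nr4a2 fell by 1.79, Nr4a3 by 1.69, Egr1 by 1.39 (1.17 without LPS+4-OHE1 replicate 3 of 6 h), Nr4a1 by 0.82 and Ier5 by 0.74, Ier3 rose by 1.24 ± 0.11 (adjusted p = 4.26e-09), and Egr2 gave 0.03 ± 0.15 (adjusted p = 0.858). Without LPS+4-OHE1 replicate 3 of 6 h the values were -1.69 for Nr4a2, -1.58 for Nr4a3, -0.64 for Nr4a1, -0.67 for Ier5, 1.23 for Ier3 and 0.15 for Egr2, with the same calls. Scaling added calls of lower for Ier2 with 4-OHE1 (-0.33, adjusted p = 0.0156) and with both agents (-0.50, adjusted p = 5.94e-04), and for Nr4a1 with LPS (-0.42, adjusted p = 0.0227).

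The difference between the times in the effect of an agent was tested in the fit of all 24 libraries. Nr4a2 and Nr4a3 entered that fit through the 6 h groups in which they are high, so these counts too are a description. The effect of 4-OHE1 was lower at 24 h for 5 members (7 after scaling) and higher for none, where 16.6% of all genes were lower and 37.0% higher on this measure. Nr4a1 lay at the threshold (-0.53, adjusted p = 0.0503) and was called with scaling (-0.74, adjusted p = 0.00831) and without LPS+4-OHE1 replicate 3 of 6 h (adjusted p = 0.0280), and Ier3 was called with scaling (-0.49, adjusted p = 0.0131). The effect of LPS was lower for 3 and higher for 1, Ier3, where 16.9% and 41.7% were. For Ier3 that value was 0.48 ± 0.16 (adjusted p = 0.0130) and was lost with scaling (0.15, adjusted p = 0.427), which added Ier5 as lower (-0.36, adjusted p = 0.0147). The difference in the interaction, added after the values of Egr2 were seen, was above 0 for 3 members and below 0 for none, where 12.1% of all genes were above and 25.2% below. For Egr2 it was 4.28 ± 0.31 (adjusted p = 1.74e-09; 4.39 without LPS+4-OHE1 replicate 3 of 6 h). Without that library it was 3.02 for Nr4a3 and 1.12 for Ier3, and Ier2 was called as well (0.66, adjusted p = 0.0285), as it was with scaling (0.79, adjusted p = 0.009995).

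Ordered by mean level over the 8 groups, Egr1 ran from 4-OHE1 at 6 h through both agents at 6 h to 4-OHE1 and both agents at 24 h, whose ranges overlapped, and then to a set of overlapping control and LPS groups. Egr2 ran from 4-OHE1 at 6 h to a set of LPS at 6 h and both agents at both times, and then to the other 4 groups, which overlapped in turn. Nr4a1 ran from 4-OHE1 at 6 h, through both agents and control at 6 h, which overlapped, 4-OHE1 and control at 24 h, which overlapped, and both agents at 24 h, to LPS at both times, which overlapped. In Nr4a2 both agents at 6 h and 4-OHE1 at 6 h each stood apart, and each neighbour overlapped the next among the other 6 groups. In Nr4a3 LPS at 6 h stood apart, 4-OHE1 and both agents at 6 h overlapped, and the 3 treated groups of 24 h overlapped above the controls. In Ier2 every group overlapped its neighbour. Ier3 ran from LPS and both agents at 24 h, which overlapped, through LPS at 6 h, both agents and 4-OHE1 at 6 h, which overlapped, and 4-OHE1 at 24 h to the controls. Ier5 ran from 4-OHE1 and both agents at 6 h, through the same pair at 24 h, to the groups without 4-OHE1, among which control and LPS overlapped at each time and the 24 h libraries lay above those of 6 h.

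Across the 24 libraries, which fall into 8 groups, the members did not share one pattern. The Pearson correlation of log2(FPKM + 0.5) was 0.96 for Egr1 with Ier5, 0.87 for Egr1 with Nr4a2 and 0.85 for Nr4a2 with Ier5. It was 0.76 for Egr2 with Nr4a3, 0.29 for Egr2 with Nr4a1 and -0.45 for Nr4a1 with Ier3. The genes nearest to Egr1 among 8372 candidates that reached a group mean of 5 FPKM were Osgin1 (0.977), Fam71f2 and Gabarapl1, and those nearest to Ier5 were Scpep1 (0.983), Ddit3 (0.982) and Gabarapl1 (0.977). Ddit3 encodes a stress-induced transcription factor and Osgin1 is a known target of the antioxidant regulator Nfe2l2. The nearest to Egr2 was Nfe2l2 itself (0.955), to Nr4a1 Pparg (0.961), a lipid-sensing nuclear receptor, to Nr4a2 Baz2b (0.974), to Nr4a3 the phosphatase gene Dusp2 (0.973), to Ier2 Sgms1 (0.835) and to Ier3 the cytokine gene Il1f9 (0.977). Egr3, at its low level, was nearest to Slbp (0.813).

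Outside the members, 45 of 48 other immediate early genes could be tested. With 4-OHE1 at 6 h 35 were higher and 9 lower (7 lower under both scalings), where 20.9% and 44.0% of all genes were. Their median log2 difference was 1.42 where the median of all genes was -0.21. The largest differences were of Csrnp1 (4.61), Gadd45g (4.12), Plk2 (4.08) and Gadd45a (3.94). With LPS at 6 h 22 were higher and 20 lower (14 lower under both scalings), where 16.1% and 68.1% of all genes were. Their median was 0.23 where that of all genes was -0.61. Gadd45b (4.08), Zfp36 (3.83), which speeds the decay of cytokine transcripts, and Dusp2 (3.67) were the highest and Rgs2 (-3.25), a G protein regulator, the lowest. Adding 4-OHE1 to LPS raised 33 (31 under both scalings) and lowered 7 at 6 h. Of all genes 42.7% were higher and 25.3% lower. The median of the 45 was 1.19 where that of all genes was 0.18. Gadd45g (5.42), Rgs2 (4.15), Csrnp1 (4.05) and Arc (3.52) had the largest differences. Arc passed the filter through the groups with 4-OHE1. It read 0.311 to 0.664 FPKM in control and 0.06 to 0.157 with LPS at 6 h. The counts and medians of this list are therefore a description and not a test of it. Adding LPS to 4-OHE1 raised 9 and lowered 17 (9 lower under both scalings), with a median of -0.08 where that of all genes was -0.28 and 10.1% of all genes were higher and 50.2% lower. At 24 h 34 were higher (30 under both scalings) and 4 lower with 4-OHE1, led by Gadd45g (2.90) and Arc (2.61). Of all genes 29.9% were higher and 23.1% lower. With LPS at 24 h 20 were higher and 22 lower (15 lower under both scalings), with Rgs2 at -4.70, where 19.9% of all genes were higher and 53.5% lower.

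**Figure D4:**
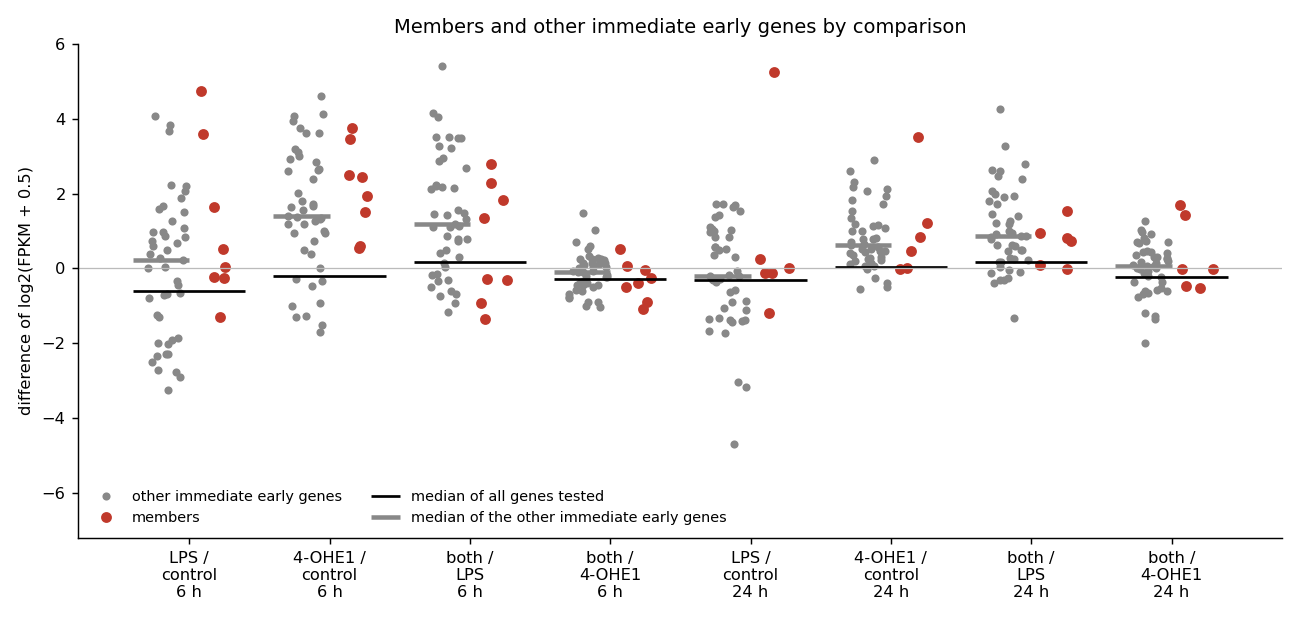
Differences of log2(FPKM + 0.5) in 8 comparisons (horizontal axis) for the members (red) and for the other immediate early genes (grey points, with a grey line at their median), and a black line at the median of all genes tested. With 4-OHE1 against control at 6 h the grey median is 1.42 and the black line is at -0.21.

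Of 9 partners and corepressors 8 were tested. Nab2, which represses EGR activity and is itself a known EGR target, fell by 1.23 with 4-OHE1 at 6 h (adjusted p = 5.44e-07) and stood 2.23 lower with both agents than with LPS (-2.23, adjusted p = 1.10e-09). Its mean at 6 h was 18.4 FPKM in control, 24.5 with LPS and 4.86 with both agents, so LPS alone stood above control. Rxra, a dimer partner of Nr4a1 and Nr4a2, fell by 2.67 with LPS (adjusted p = 3.62e-09) and by 0.88 with 4-OHE1. Lcor rose by 0.56 with 4-OHE1 at 6 h. In this list 2 were higher and 4 lower with LPS (3 lower under both scalings), and 3 higher and 5 lower with 4-OHE1 (4 lower under both). Of 21 upstream factors, all tested, 3 were higher and 16 lower with LPS (8 lower under both scalings) and 5 higher and 11 lower with 4-OHE1 (8 lower under both). Of all genes 16.1% were higher and 68.1% lower with LPS, and 20.9% higher and 44.0% lower with 4-OHE1, so the counts of the upstream factors are near the shares of all genes. Map3k8, a kinase upstream of ERK, rose by 2.74 with LPS and by 2.36 with 4-OHE1, and the inducible CREB relative Crem rose by 1.41 with 4-OHE1, while Elk3, a partner of serum response factor, fell by 2.06 with LPS and by 2.0 with 4-OHE1.

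The 10 neutrophil markers summed to 10.9 to 11.7 FPKM in control at 24 h, 77.8 to 93.8 with LPS, 17.9 to 22.7 with 4-OHE1 and 117 to 150 with both. The sum was high in the 24 h groups in which Ier3 was highest and highest where Egr2 was, and its part in those results was not tested. It was made of S100a8 (42.8 to 60.2 FPKM with LPS and 81.4 to 112 with both), Mmp8 (29.6 to 30.6 and 28.5 to 37.7) and Camp (3.83 to 6.81 and 0.305 to 0.679), while S100a9 did not exceed 0.440 FPKM with LPS, Ltf, Elane and Retnlg were at 0 in all LPS libraries of 24 h and Ly6g, Mpo and Ngp did not exceed 0.139 FPKM in the libraries with LPS at 24 h. At 6 h the sum was 12.2 to 13.0 FPKM with LPS and 11.7 to 15.7 in control. Dendritic cell markers summed to 5.39 to 6.48 FPKM with LPS at 24 h and to at most 3.67 FPKM in the other groups, and fibroblast markers to at most 6.08 FPKM in all groups. Lymphocyte markers summed to at most 1.37 FPKM, and mast cell and erythroid markers to at most 0.239 and 0.539 FPKM.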

How the data were processed

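Per the labels' protocols, messenger RNA was isolated from total RNA, made into libraries with a KAPA HyperPrep kit and sequenced on a HiSeq4000. The submitters' processing notes name STAR, HOMER, DESeq2, edgeR and mm10, without versions. Per the file headers, the authors counted exon reads with HOMER, took 1 transcript for each gene and deposited FPKM in a table for each time. How strand was handled is not given in the sources used here. The authors also deposited 4 tables of treatment against control with log2 fold changes and adjusted p-values, which served as an alternative. Another 72 columns of per-sample values in those tables were not used here.

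The test was limma 3.58.1 (R 4.3.3) on log2(FPKM + 0.5), with a trend in empirical Bayes. A gene needed 1 FPKM in 3 of the fitted libraries. Each time had its own fit of 12 libraries, while the 24 libraries were fitted together to compare times. Calls are at a Benjamini-Hochberg adjusted p under 0.05 over all genes tested. The pseudocount understates changes of low genes. The script was tested on simulated data.

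All values checked were whole numbers of reads within 0.1 read (100%), so reads were recovered and voom was run on them. It called 1794 genes higher and 7617 lower for LPS at 6 h, against 1792 and 7563 from FPKM. Depths of LPS+4-OHE1 libraries were estimated from the value of 1 read.

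Named genes are all members, up to 4 called genes per list with the largest change in a comparison, and the 3 genes most correlated with each member. The members, lists and motifs were chosen with earlier results of these data known. Alternatives were pseudocounts of 0.1 and 1, no filter, a filter of 6 libraries, median-of-ratios scaling, robust empirical Bayes, a replicate block, each library left out, voom and the authors' tables.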

Additional observations from a re-analysis of the deposited data

Results flagged for a closer look

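Effects that differed between 6 h and 24 h, by a test of the difference itself in limma, are listed here. For the effect of 4-OHE1 the difference (24 h minus 6 h, log2 units) was -2.46 for Egr2, -2.24 for Egr1, -1.88 for Nr4a3, -1.36 for Nr4a2 and -1.09 for Ier5. For the effect of LPS it was -2.72 for Nr4a3, -1.76 for Egr2, -0.63 for Ier2 and 0.48 for Ier3. For the interaction of LPS and 4-OHE1, tested after the values of Egr2 were seen, it was 4.28 for Egr2, 2.91 for Nr4a3 and 1.13 for Ier3. Values of Nr4a3 depend on the pseudocount, since its control libraries are at 0. Nr4a2 and Nr4a3 entered the fit through the 6 h groups in which they are high, so a smaller effect at 24 h was built into their inclusion. Whether any technical difference between the times contributes was not tested.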

How the results depend on the processing

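Of 126 differences of members, median-of-ratios scaling moved 24 across the threshold. Of those whose sign turned, 12 were called in neither setting, among them Egr1 with LPS at 6 h (0.21), and 2 were called in 1 of the settings, both of Ier5: LPS+4-OHE1 against 4-OHE1 at 6 h (0.23) and LPS at 24 h against 6 h (-0.005516). With scaling, 3 members were higher and 2 lower for LPS+4-OHE1 against 4-OHE1 at 6 h, 1 was above 0 for the interaction at 6 h, 3 were higher for LPS at 24 h, 0 lower for LPS+4-OHE1 against 4-OHE1 at 24 h, 2 below 0 for the interaction at 24 h, 0 higher for LPS between the times and 0 higher for the effect of LPS between the times. With it 7 members were lower, against 5, for the effect of 4-OHE1 between the times. Without a filter 2 members were lower with LPS at 6 h, 1 lower with 4-OHE1 at 6 h, 2 higher and 2 lower with LPS at 24 h, 2 below 0 for the interaction at 24 h and 0 higher in control between the times. A pseudocount of 0.1 left 0 members higher for LPS+4-OHE1 against 4-OHE1 at 6 h. The authors' deposited comparisons had 5 members higher and 2 lower with LPS at 6 h, 3 higher with LPS at 24 h and 5 higher with 4-OHE1 at 24 h. They counted another transcript for Egr2 and Nr4a3 in all 4 comparisons, for Egr3 in 3 and for Nr4a2 in 1. Deviations of same-numbered libraries from their group means correlated at -0.14 to 0.08 at 6 h and -0.09 to 0.27 at 24 h. Those of different numbers correlated at -0.15 to 0.20 and -0.31 to 0.11. The highest same-number values were of LPS with 4-OHE1 at 24 h, in replicate 2 (0.272) and replicate 3 (0.270). Whether the numbers pair libraries stays unknown, since no label says so and weak correlations cannot exclude it. The replicate block changed 1 call, Ier5 in control between the times (adjusted p = 0.0530, 0 members higher). With each library left out in turn, 2139 of 2184 differences kept their side of the threshold, 27 calls were lost and 18 gained. The count of members ranged from 1 to 2 lower with LPS at 6 h (2 without LPS replicate 3 or LPS+4-OHE1 replicate 3), 0 to 1 higher for LPS+4-OHE1 against 4-OHE1 at 6 h (0 without 4-OHE1 replicate 1 or 3 or LPS+4-OHE1 replicate 3), 1 to 2 lower with LPS at 24 h (2 without LPS replicate 2), 1 to 2 lower for LPS+4-OHE1 against 4-OHE1 at 24 h (1 without 4-OHE1 replicate 2) and 0 to 1 higher in control between the times. The cause of these moves was not tested. Depth limits Egr3, Nr4a2 and Nr4a3 at 24 h, at 0 to 26 reads per library.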
